A study of Mus musculus with 48 samples.

Results

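The libraries described here are the 16 of 48 that came from mice of the MEHP lineage. They were taken by their labels: 8 libraries of primordial germ cells (PGC) and 8 of early ovarian somatic cells (SC). MEHP is mono-(2-ethylhexyl) phthalate, the active metabolite of a common phthalate plasticiser. All animals were wild-type CD1 females at embryonic day 13.5. The founder females drank an estimated 35 mg/kg of MEHP daily, by body weight, with 0.3% v/v DMSO during the first 13 days of one pregnancy. F1 embryos were exposed directly in the uterus. F2 and F3 descend from them through the exposed female line, and in F2Sy, which the labels call synergy, both progenitors came from the exposed lineage. Each class has 2 libraries per fraction. About 80 gonads without mesonephros were pooled and split on a magnetic column with beads against the germ cell antigen CD15. Per the labels, staining put PGC fractions at 93 to 96% germ cells and SC fractions at over 90% somatic cells, and RNA under 100 nt with a RIN of at least 8 was used. Nothing in the labels tells whether paired libraries stem from different pools or litters, so p-values measure the spread between libraries, which may be technical. The control lineage used for comparison received DMSO alone, in the same 4 classes. A further lineage, compared as well, descended from founder females given the fungicide vinclozolin at 50 mg/kg daily, in the same 4 classes. Its vehicle and days of exposure were those of the MEHP lineage.

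A microRNA (miRNA) is a short RNA cut from a hairpin precursor. Either arm (5p or 3p) can be kept, and the seed, bases 2 to 8, pairs with target mRNAs. Many miRNAs are transcribed together from clusters. In the mouse, the miR-290-295 and miR-302-367 clusters are typical of pluripotent and primordial germ cells. The let-7 family increases as cells differentiate, and its maturation is blocked by Lin28 in germ cells and stem cells.

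The following mature sequences from RefSeq (GRCm38.p6) belong to miRNAs on which the comparison of fractions turned, with the seed in capitals. The first 4, from clusters abundant in germ cells, share a seed, and miR-20b-5p has nearly the same letters moved by 1 base.
miR-291a-3p: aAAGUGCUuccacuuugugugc
miR-294-3p: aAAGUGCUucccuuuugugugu
miR-295-3p: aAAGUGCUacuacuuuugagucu
miR-302b-3p: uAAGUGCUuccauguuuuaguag
miR-20b-5p: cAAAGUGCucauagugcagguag
miR-183-5p, abundant in PGC, and 3 miRNAs abundant in SC each have a different seed.
miR-183-5p: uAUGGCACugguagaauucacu
miR-202-5p: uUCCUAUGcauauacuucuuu
miR-99a-5p: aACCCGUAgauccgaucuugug
let-7c-5p: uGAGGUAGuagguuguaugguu
The last 5 are shown because miRNAs with one seed differed in opposite directions. miR-92a-3p, miR-363-3p and miR-25-3p share a seed, as do miR-16-5p and miR-322-5p.
miR-92a-3p: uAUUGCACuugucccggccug
miR-363-3p: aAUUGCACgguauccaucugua
miR-25-3p: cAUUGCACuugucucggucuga
miR-16-5p: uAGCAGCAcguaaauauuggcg
miR-322-5p: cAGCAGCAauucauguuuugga

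The table gives whole-number counts for 563 miRNAs and leaves a cell blank where no value was listed. In the 16 MEHP libraries 2391 of 9008 cells were blank (26.5%). PGC libraries held 6155152 ± 931370 listed counts (SD, n = 8; 4965423 to 7946140) and SC libraries 10024573 ± 874426 (SD, n = 8; 8596067 to 11106231). PGC libraries listed 385 ± 7.54 miRNAs and SC libraries 442 ± 9.85 (SD, n = 8 each; exact permutation within classes, two-sided p = 0.00154, the smallest its arrangements can give). The fraction with the larger totals also listed more miRNAs, and the part of depth in this was not tested. Log2 counts of a library correlated with those of the other library of its group at r from 0.951 to 0.980 across miRNAs, which are not independent replicates. Library 1 of the F3 SC pair listed the fewest SC miRNAs (420) and was the least like its fraction (median r 0.930). In library 2 of F2Sy SC the erythroid miR-451a was raised. Without both libraries, 119 miRNAs were higher and 115 lower in PGC in the main comparison described next.

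The germ cell and somatic fractions differed in most of their miRNAs. Germ cells were richer in the miR-290-295, X-linked and miR-183 clusters. Somatic cells were richer in miR-202-5p, the miR-322-503-351 cluster, let-7, the imprinted Dlk1-Dio3 cluster and mesenchymal miRNAs. Of the 274 miRNAs listed in all 16 libraries, 120 were higher in PGC (43.8%) and 115 were lower (42.0%), together 85.8%, as a mean over the 4 classes (quasi-likelihood test of edgeR, at a Benjamini-Hochberg adjusted p under 0.05). These 274 held 97.9% of listed counts in PGC and 97.8% in SC. The median log2 fold change, PGC over SC, was 0.03, and 191 miRNAs differed by more than 1 in either direction. This median depends on how libraries are scaled and is not a test result. It was 0.08 with RLE factors and -0.05 with library size alone. Higher and lower are thus relative to the other miRNAs of a library, which matters most for small fold changes. In 182 of the 274 (66.4%) no PGC library overlapped any SC library, 83 of them higher and 99 lower in PGC. In bulk libraries, fewer cells of a type and less of an RNA per cell cannot be told apart. Levels are given as CPM, counts per 1000000 listed counts of a library.

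**Figure D1:**
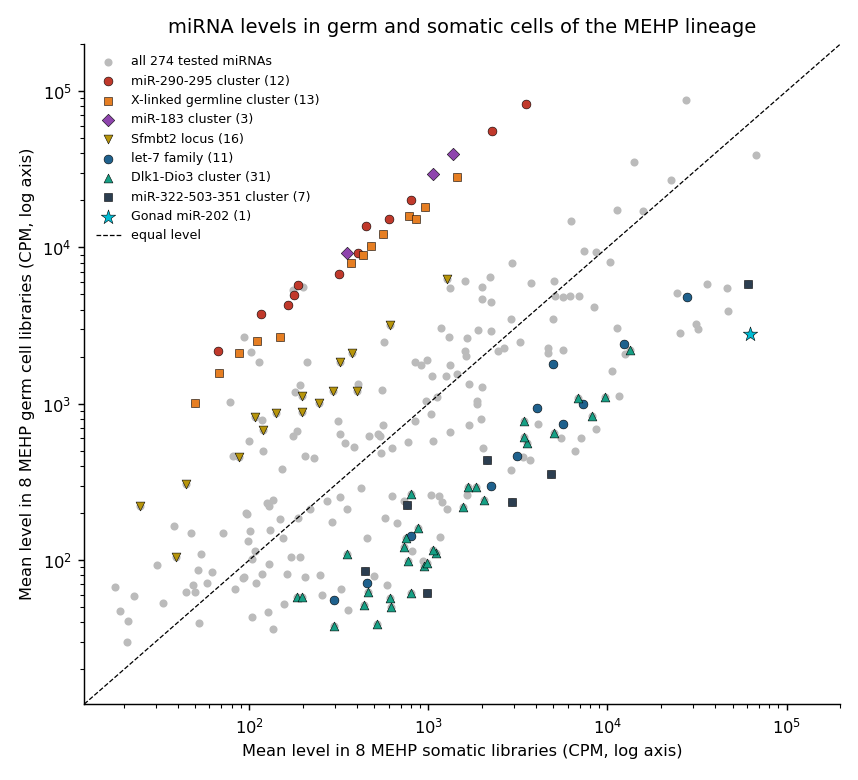
Mean level of each of the 274 miRNAs in the 8 MEHP SC libraries (x) and the 8 MEHP PGC libraries (y), both in CPM on log axes, with 8 lists marked. The germ cell clusters lie above the line of equal level, and let-7, Dlk1-Dio3, miR-322-503-351 and miR-202 lie below it.

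The miR-290-295 cluster promotes the rapid cell cycle of mouse embryonic stem cells. Each of its 12 miRNAs in the test was higher in PGC. Their median log2 fold change was 4.85 (4.57 to 5.28), beside 0.03 over all miRNAs tested. Together they made up a median of 22.7% of listed counts in PGC and 0.941% in SC. miR-292a-3p, the most abundant of them, ranged from 63413 to 104288 CPM in PGC (median 87021) and from 2239 to 5753 CPM in SC (median 3234). Every PGC library stood above every SC library, and the log2 fold change was 4.69 ± 0.20 (SE; adjusted p = 1.34e-10, edgeR). miR-291a-3p ranged from 2205 to 5815 CPM in PGC (median 3575) and from 52.0 to 304 CPM in SC (median 83.7), and with 5.28 ± 0.21 (SE; edgeR adjusted p = 8.11e-11) its log2 fold change was the largest among the 274. Of the remaining 6 members of the table, 1 was listed in all 8 PGC and no SC library, 3 in all PGC and some SC libraries, and 2 in at most 3 PGC and no SC libraries. All 3 tested members of the related miR-302-367 cluster were higher too, by 2.60 to 2.81 on the log2 scale; miR-302b-3p, with the seed of miR-291a-3p, stood at 490 to 1310 CPM in PGC and 40.6 to 155 CPM in SC.

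miR-183, miR-96 and miR-182, made from 1 cluster best known from sensory cells, were higher in PGC by 4.90 to 5.26 on the log2 scale. miR-183-5p ranged from 32419 to 50081 CPM in PGC (median 38328) and from 292 to 2190 CPM in SC (median 1433). Its log2 fold change was 5.26 ± 0.17 (SE; adjusted p = 2.02e-11, edgeR), without overlap between fractions. The X-linked germline miRNAs are fast-evolving and expressed in rodent germ cells. The 13 in the test were all higher, by 4.47 to 5.03 on the log2 scale. Of the 19 members outside the test, 2 were listed in all PGC and no SC libraries and 12 in all PGC and some SC libraries. Another 2 went the other way: miR-547-3p was listed in no PGC and all 8 SC libraries (27.9 to 175 CPM) and miR-201-5p in 3 PGC (at most 52.6 CPM) and all 8 SC libraries (153 to 572 CPM). The most abundant, miR-465c-3p, lay between 18131 and 49865 CPM in PGC and between 382 and 3031 CPM in SC. Summed, the 13 made up a median of 10.7% of listed counts in PGC and 0.651% in SC. The largest fold change among them was that of miR-743b-3p (5.03 ± 0.34, SE), at 1377 to 2933 CPM in PGC and 20.2 to 232 CPM in SC. All 16 tested miRNAs of the Sfmbt2 locus, an imprinted gene with a large intronic cluster, were higher with a smaller median of 2.50 (1.56 to 3.29). Near-identical members of these clusters may share reads, which was not tested, so the values of single members are uncertain.

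**Figure D2:**
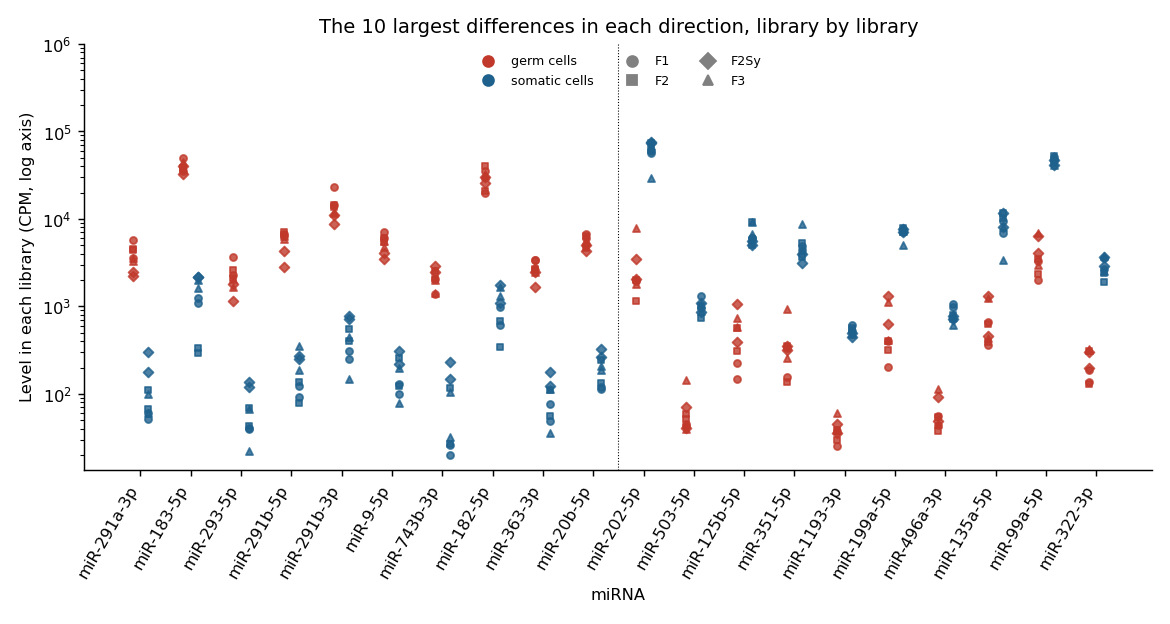
Level in each library (CPM, log axis) of the 10 miRNAs with the largest log2 fold change in each direction, with PGC libraries in red, SC libraries in blue and marker shapes for the 4 classes. The fractions do not overlap for any of the 20 miRNAs.

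The differences of the proliferation-linked miR-17-92 family were less even, and mostly smaller in miR-17-92 itself and in miR-106b-25. All 8 tested members of miR-17-92 itself were higher in PGC, with a median of 1.29. miR-92a-3p, the most abundant miRNA of the PGC fraction, ranged from 69877 to 101390 CPM there (median 88323) and from 18223 to 50685 CPM in SC (median 26078). The fractions did not overlap, at a log2 fold change of 1.79 ± 0.19 (SE; adjusted p = 6.32e-07, edgeR). Both tested members of the X-linked paralog miR-106a-363 were higher by more, miR-20b-5p by 4.95 ± 0.19 and miR-363-3p by 5.01 ± 0.28 (SE). In the third paralog, miR-106b-25, 3 of 5 members were higher (among them miR-106b-5p at 0.56 ± 0.25, whose call was lost in 18 of 26 alternatives) and miR-25-3p was lower, at -0.75 ± 0.12 (SE; edgeR adjusted p = 5.48e-05). miR-25-3p lay between 821 and 1300 CPM in PGC and between 1597 and 2487 CPM in SC, again without overlap.

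The largest difference in the somatic direction was that of miR-202-5p, expressed chiefly in ovary and testis. It ranged from 29191 to 75310 CPM in SC (median 64163) and from 1158 to 7809 CPM in PGC (median 2021), without overlap. The log2 fold change was -4.51 ± 0.30 (SE; adjusted p = 3.71e-09, edgeR), and the library nearest the germ cell values was library 1 of F3 SC. The most abundant SC miRNA, miR-26a-5p, differed less, with 52790.5 to 73204 CPM in SC and 36689 to 41693 CPM in PGC (-0.69 ± 0.12, SE). All 7 tested members of the X-linked miR-322-503-351 cluster, linked to cell cycle exit, were lower in PGC, with a median of -3.31. miR-503-5p lay between 40.1 and 145 CPM in PGC and between 743 and 1306 CPM in SC. The fractions did not overlap, at a log2 fold change of -3.97 ± 0.25 (SE; adjusted p = 2.02e-09, edgeR).

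All 11 tested let-7 miRNAs were lower in PGC, with a median of -2.48 (-2.93 to -1.33). let-7c-5p ranged from 2669 to 7721 CPM in PGC (median 4724) and from 13549 to 37301 CPM in SC (median 28518). The fractions did not overlap, at a log2 fold change of -2.48 ± 0.22 (SE; adjusted p = 7.27e-08, edgeR). The 11 made up a median of 1.27% of listed counts in PGC and 6.92% in SC. Only let-7f-5p overlapped between fractions, with library 1 of F3 SC at 1398 CPM below the lowest PGC library at 1556 CPM. The Dlk1-Dio3 miRNAs are expressed from the maternal chromosome. All 31 in the test were lower in PGC as well (median -2.79; -3.67 to -1.50). miR-127-3p lay between 1307 and 3039 CPM in PGC and between 7742 and 21010 CPM in SC, and miR-1193-3p showed the largest difference of the cluster, at -3.67 ± 0.18 (SE). Of 9 mesenchymal miRNAs 7 were lower, and summed the 9 made up a median of 1.54% of listed counts in PGC and 15.1% in SC. Among these, miR-99a-5p was listed at 2026 to 6977 CPM in PGC and at 41042 to 52892 CPM in SC. The fractions did not overlap, at a log2 fold change of -3.57 ± 0.21 (SE; adjusted p = 1.66e-09, edgeR). In the same list the chondrocyte-enriched miR-140-5p was higher in PGC, at 0.63 ± 0.16 (SE). All 4 miRNAs of the Hox clusters (miR-10a, miR-10b, miR-196a and miR-196b) were lower in PGC, by a median of -2.38.

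The smaller families varied, with the shares over all miRNAs, 43.8% higher and 42.0% lower, as the background. Of the miR-148 and miR-152 family, regulators of the maintenance DNA methyltransferase, miR-148a-3p was higher in PGC (1.84 ± 0.16, SE) while miR-152-3p (-2.22 ± 0.34) and miR-148b-3p (-1.79 ± 0.18) were lower, none with overlap. Of the epithelial miR-200 family, miR-200c-3p was higher by 4.10 ± 0.20 (1245 to 2236 CPM in PGC and 73.2 to 179 CPM in SC), whereas miR-429-3p, miR-200a-3p and miR-200b-3p lay at 0.51, 0.51 and 0.47 with overlapping libraries. The calls of miR-429-3p and miR-200a-3p were lost in 16 and 10 of 26 alternatives, and miR-200b-3p was not called. The 3 tested miR-29 miRNAs, which target DNA methyltransferases, were higher, from miR-29c-3p at 0.57 to miR-29a-3p at 3.87. Of 8 tested miR-30 miRNAs 7 were higher in PGC (median 1.41). Of 4 tested miRNAs of the miR-34 and miR-449 family, miR-34a-5p, a p53 target, was higher (1.32 ± 0.20) and miR-34b-3p and miR-34c-3p were lower (-0.82 and -0.66). Of 6 miRNAs of the miR-15 and miR-16 family 4 were higher and 2 were not called; of 3 from the miR-130 and miR-301 family all were lower. Of 8 tested members of the miR-21 and miR-23/27/24 list 3 were higher, 3 lower and 2 not called, near the shares over all miRNAs. miR-221-3p was lower (-0.66 ± 0.19) and miR-222-3p, at -0.23 ± 0.17, was not called.

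Some markers of other cells were listed in both fractions, and others in 1 fraction or in neither. The erythroid miR-451a was lower in PGC (-3.06 ± 0.38, SE; edgeR adjusted p = 2.65e-06), with 989 to 6648 CPM in PGC. In SC it lay between 13995 and 19535 CPM in 7 libraries and at 85923 CPM in library 2 of F2Sy, and the log2 fold change was -4.88 in F2Sy and -3.19 to -1.95 elsewhere. The other 3 erythroid miRNAs of the table were listed at no more than 166 CPM. miR-144-3p was listed in 1 PGC and 7 SC libraries, miR-486b-5p in 1 and 8, and miR-486b-3p in 0 and 1. The endothelial miR-126a-3p was lower in PGC as well (-2.26 ± 0.19, SE), with 2271 to 11495 CPM in PGC and 16721 to 30782 CPM in SC. Leukocyte miR-150-5p was not called (0.15 ± 0.32), while miR-155-5p was listed in all 8 PGC libraries (241 to 536 CPM) and at no more than 34.1 CPM in 6 SC libraries. Of the same list, miR-142a-3p was listed in 8 PGC libraries (28.9 to 251 CPM) and 7 SC libraries (24.3 to 66.9 CPM). miR-142a-5p was listed in 1 library of each fraction, and miR-223-3p in 0 PGC and 3 SC libraries (17.1 to 32.3 CPM). Of the neural list, miR-9-5p was higher in PGC (5.06 ± 0.25) at 3488 to 7074 CPM, and miR-124-3p was listed in all PGC libraries (106 to 770 CPM) and in 4 SC libraries (17.3 to 43.3 CPM). miR-218-5p of that list was lower (-0.88 ± 0.17). Among muscle miRNAs miR-133a-3p was listed in no library of the lineage and miR-1a-3p in no PGC library, while miR-206-3p was listed in all PGC libraries (50.0 to 537 CPM). Liver miR-122-5p was listed in 1 PGC library (44.1 CPM) and 3 SC libraries (14.1 to 675 CPM), and miR-122-3p in 1 SC library (146 CPM). The part of other cells in the fraction differences was not tested.

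For the members of each germ cell list the mean level in SC was set against that in PGC. Over the miR-290-295 members it came to 3.10 to 4.68% of the PGC level, over the miR-183 cluster to 3.46 to 3.77%, over the X-linked cluster to 4.18 to 5.56%, over the miR-302-367 cluster to 14.8 to 17.5% and over the Sfmbt2 locus to 10.96 to 36.9% (median 18.4%). Conversely miR-202-5p in PGC came to 4.50% of its SC level. The stated purities leave some cells of the other kind in each fraction, and their part in these levels was not tested.

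Outside the 274, some of the 563 miRNAs of the table were listed in 1 fraction alone. There were 9 miRNAs in all 8 PGC and no SC libraries, with mean levels from 63.7 to 312 CPM, each above the highest smallest listed level of any SC library (15.7 CPM) in every PGC library. The most abundant were miR-290b-3p (312 ± 132 CPM), miR-471-5p (257 ± 90.7), the neural miR-153-3p (228 ± 62.8), miR-9b-3p (192 ± 35.9), miR-742-5p (169 ± 56.8) and miR-219a-2-3p (109 ± 21.2; SD, n = 8 each). Of the 9, 6 were also listed in all 24 PGC libraries of the series and in none of its 24 SC libraries. A blank in either fraction does not show absence. Tested miR-290-295 members had mean SC levels of 3.10 to 4.68% of those in PGC. At such a share the 9 could lie under the smallest listed level of SC libraries, which was not tested. Conversely 53 miRNAs were listed in all 8 SC and no PGC libraries, at 18.2 to 238 CPM, and 40 of them exceeded in every SC library the highest smallest listed level of the PGC libraries (26.4 CPM). The Dlk1-Dio3 cluster, which has 83 of the 563 miRNAs, supplied 25 of the 53, among them miR-540-3p (216 CPM), miR-666-3p, miR-379-3p and miR-485-3p. The others include miR-1251-5p at 238 ± 105 CPM, both arms of the hypoxia marker miR-210, and miR-130b-3p, of the family of miR-130 and miR-301, at 187 ± 34.5 CPM (SD, n = 8 each).

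A pair of the germ cell miRNAs lie opposite a more abundant miRNA in RefSeq: miR-9b-3p overlaps miR-9-5p by 21 bases on the other strand, and miR-290b-3p overlaps miR-290a-5p by 21 bases. Their sequences are shown because each reads as the reverse complement of its partner over those bases.
miR-9-5p: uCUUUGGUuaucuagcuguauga
miR-9b-3p: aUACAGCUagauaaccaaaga
miR-290a-5p: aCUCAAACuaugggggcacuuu
miR-290b-3p: aAGUGCCCccauaguuugagua
In PGC their mean levels came to 3.61% and 3.38% of those of their partners. In SC the partners stood at 176 and 403 CPM. The sources used here do not give the strand setting of the counting, so reads of each pair may not be separable. The same limit holds for miRNAs listed in SC alone. miR-3071-3p overlaps miR-136-5p by 20 bases and came to 68.2% of its mean SC level. miR-3544-3p overlaps miR-337-5p by 17 bases and came to 10.7%. Likewise miR-3074-5p, listed in both fractions, overlaps miR-24-3p by 20 bases.

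miRNAs with 1 seed can pair with the same sites, so the counts were also summed by seed. For 239 of the 274 miRNAs RefSeq gave a mature sequence, in 185 seeds. Of these seeds 75 were higher in PGC (40.5%) and 82 lower (44.3%), together 84.9%. The seed AAGUGCU of miR-291a-3p, miR-294-3p, miR-295-3p, miR-302b-3p and miR-302d-3p held 4.03 ± 1.18% of listed counts in PGC and 0.174 ± 0.0764% in SC (SD, n = 8 each). The let-7 seed GAGGUAG, with 9 members all lower in PGC, held 1.25 ± 0.352% and 6.78 ± 1.48%. The miR-99/100 seed ACCCGUA held 1.02 ± 0.308% and 8.68 ± 1.72% (exact permutation within classes, two-sided p = 0.00154). It was picked as the seed with the highest mean share in SC of these same libraries. Its p-value is not adjusted for that choice among 185 seeds and lends no separate support. miR-292a-3p, the second most abundant PGC miRNA, had no RefSeq entry and is not part of these sums, which cover 83.5% of PGC and 92.8% of SC counts. Other tested miRNAs without a match are absent too, so a seed may lack members. For example, miR-302a-3p, miR-30b-5p and miR-30d-5p are in none of the seeds with several members.

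Among the 26 seeds with several tested members matched in RefSeq, 16 had all those members called in one direction and 4 had members called in both. In the AUUGCAC group, miR-363-3p (5.01), miR-92b-3p (3.30), miR-92a-3p (1.79) and miR-32-5p (1.28) were higher in PGC while miR-25-3p was lower (-0.75). As a whole the group held 9.38 ± 1.16% of counts in PGC and 3.02 ± 1.02% in SC (SD, n = 8 each; exact permutation within classes, two-sided p = 0.00154). This seed was picked for its highest mean share in PGC, so its p-value, not adjusted for that choice, lends no separate support. In the AGCAGCA group 4 members were higher, led by miR-16-5p, while miR-322-5p was lower. miR-16-5p lay between 30634 and 39860 CPM in PGC and between 12464 and 16580 CPM in SC (log2 fold change 1.41 ± 0.13, SE; edgeR adjusted p = 1.41e-07). miR-322-5p lay between 3711 and 10068 CPM in PGC and between 36641 and 84720 CPM in SC (-3.31 ± 0.19, SE; edgeR adjusted p = 8.93e-10). The group as a whole had a log2 fold change of -0.63 ± 0.12 (SE). The remaining 2 groups are CAGUGCA, of miR-148 and miR-152, and UCACAGU, in which miR-27a-3p was higher (1.10 ± 0.32) and miR-27b-3p lower (-0.92 ± 0.14).

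Of 37 hairpins with both arms listed in all 16 libraries, 7 differed in the ratio of 5p to 3p counts (18.9%; limma, Benjamini-Hochberg adjusted p under 0.05), and in 35 the same arm dominated in both fractions. miR-27a, whose 3p arm dominates, showed the largest difference. Its ratio ran from 0.0232 to 0.0543 in PGC (median 0.0289) and from 0.106 to 0.622 in SC (median 0.191), without overlap, a log2 difference of -2.76 ± 0.37 (SE; limma adjusted p = 0.000138). In miR-154, a Dlk1-Dio3 hairpin, the ratio ran from 0.473 to 1.70 in PGC (median 1.04) and from 2.30 to 7.80 in SC (median 3.22), so the 5p arm prevailed in every SC library and the arms were about even in PGC (-1.83 ± 0.26, SE; limma adjusted p = 0.000138). The 5p to 3p ratio was higher in PGC for miR-25 (1.91 ± 0.30), miR-29c (0.82 ± 0.26) and miR-20a (0.76 ± 0.18), and lower for miR-324 (-1.20 ± 0.39) and miR-22 (-0.75 ± 0.20, SE). The calls of miR-29c and miR-324, at a limma adjusted p of 0.0453 each, were each lost in 11 of 18 alternatives. Without library 2 of F3 SC 7 hairpins were called higher in place of 3, and without library 2 of F2 SC or library 1 of F2Sy SC 2 were called lower in place of 4.

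**Figure D3:**
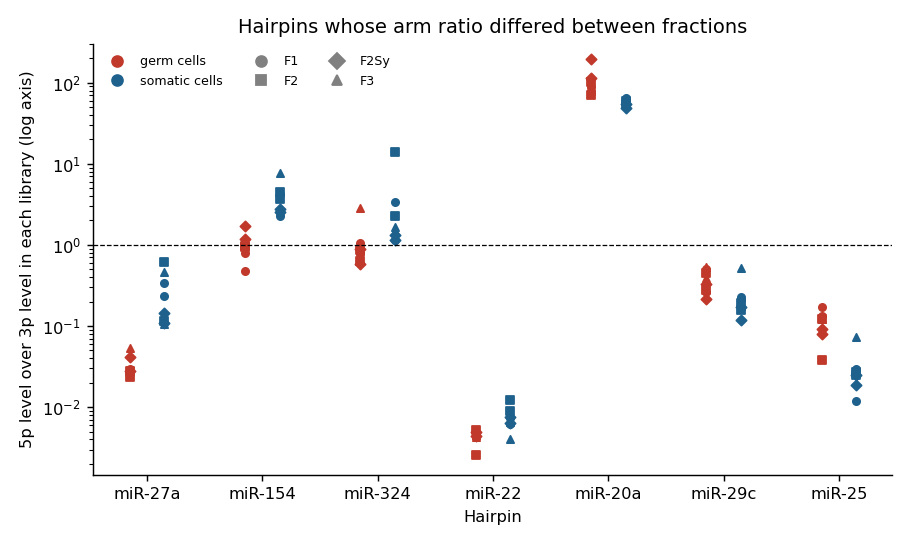
Ratio of 5p to 3p level in each library (log axis) for the 7 hairpins called, with PGC libraries in red, SC libraries in blue and the line of equal arms dashed. PGC and SC libraries are apart for miR-27a, miR-154 and miR-20a and overlap for miR-25, miR-22, miR-29c and miR-324.

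The next comparison asked whether the difference between fractions changed with the generation. Within single classes, 92 miRNAs were higher and 110 lower in PGC in F1 (33.6% and 40.1% of 274, together 73.7%). In F2 these were 105 and 103 (38.3% and 37.6%, together 75.9%), in F2Sy 90 and 97 (32.8% and 35.4%, together 68.2%) and in F3 89 and 101 (32.5% and 36.9%, together 69.3%). In all, 240 of 274 had the same sign in the 4 classes, and 166 were called in each of them. The median absolute log2 fold change was 1.95, 2.01, 1.77 and 1.71 in F1, F2, F2Sy and F3. A joint test of differences between classes called 1 miRNA (0.365%), miR-183-5p (edgeR adjusted p = 0.0162), where DESeq2 called 14. The call of miR-183-5p was lost without library 1 or 2 of F2 PGC (edgeR adjusted p = 0.121 and 0.0756), library 2 of F2Sy PGC (0.0512), library 2 of F2 SC (0.0870) or library 2 of F2Sy SC (0.0525). Without library 2 of F3 SC 6 were called.

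miR-183-5p stood apart in F2. Its SC level was 335 and 292 CPM in F2, 1090 and 1258 CPM in F1, 2190 and 2147 CPM in F2Sy and 1608 and 2014 CPM in F3. Its 2 F2 PGC libraries, at 38619 and 38037 CPM, lay among those of the other classes. The log2 fold change was 7.05 ± 0.38 in F2, against 4.30 to 5.22 in the others, a difference of 2.38 ± 0.34 (SE; edgeR adjusted p = 0.00242), and it was the only miRNA called in F2 against the other 3 classes (0.365%; 2 without library 1 of F2 SC). miR-182-5p of the same cluster had 6.02 in F2 and 4.39 to 5.15 elsewhere, and miR-96-5p had 5.08 in F2, below its 5.30 in F1; neither was called.

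In F2Sy against the other classes 1 miRNA was called (0.365%), miR-291a-3p. It stood at 2205 and 2456 CPM in F2Sy PGC, below the 3340 to 5815 CPM of the other 6 PGC libraries, and at 304 and 178 CPM in F2Sy SC, above the 52.0 to 111 CPM of the other 6 SC libraries. The log2 fold change of 3.52 ± 0.39 in F2Sy was smaller by 2.35 than in the other classes (-2.35 ± 0.42, SE; edgeR adjusted p = 0.0194). The call of miR-291a-3p was lost without library 1 or 2 of F2Sy PGC (edgeR adjusted p = 0.144 and 0.114), library 1 of F2Sy SC (0.0688), library 1 of F1 SC (0.0540) or library 1 of F2 PGC (0.0501). Without library 2 of F3 SC 3 were called. The other 11 tested members of miR-290-295 had a lower fold change in F2Sy too, none of them called by edgeR. Of all 274 miRNAs 133 had their smallest absolute fold change in F2Sy, among them 10 of 12 miR-290-295, 10 of 16 Sfmbt2, 4 of 13 X-linked and 22 of 31 Dlk1-Dio3 members. The cluster's median log2 fold change was 5.59 in F1, 5.06 in F2, 3.98 in F2Sy and 4.66 in F3. DESeq2 called 13 miRNAs with a lower log2 fold change in F2Sy, among them miR-291a-3p, miR-295-3p and miR-293-5p, and 3 with a higher one. miR-183-5p was among the lower ones too, at -1.33 against the other classes. Also among those lower was the erythroid miR-451a, whose difference was largest there. Its level was 85923 CPM in library 2 of F2Sy SC and 13995 to 19535 CPM in the other SC libraries. The summed level of the 12 members was 186597 and 169396 CPM in F2Sy PGC and 212786 to 284737 CPM in the other PGC libraries. In SC it was 14233 and 10466 CPM in F2Sy, and 5213 to 10900 CPM in the others.

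In F1 and in F3 against the other classes edgeR called 0 (0%), with 37 and 12 under 0.05 before adjustment, while DESeq2 called 10 and 0. Without library 1 of F1 PGC 2 were called lower in F1, and without library 2 of F3 SC 7 were called higher in F3. Of all 274 miRNAs 122 had their largest absolute fold change in F1. Among the lists this held for 13 of 13 X-linked, 11 of 12 miR-290-295 and 23 of 31 Dlk1-Dio3 members. The difference was under 0.05 before adjustment for 11, 10 and 2 of these lists' members and for 0 after it (edgeR adjusted p of at least 0.336). The summed level of the X-linked members was 81484 and 87555 CPM in F1 PGC, 193160 and 215253 CPM in F2Sy PGC and 99456 to 123577 CPM in F2 and F3 PGC. In SC it was 1741 and 1929 CPM in F1, 14119 and 9057 CPM in F2Sy and 2482 to 8340 CPM in F2 and F3. Both fractions were thus highest in F2Sy and lowest in F1.

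**Figure D4:**
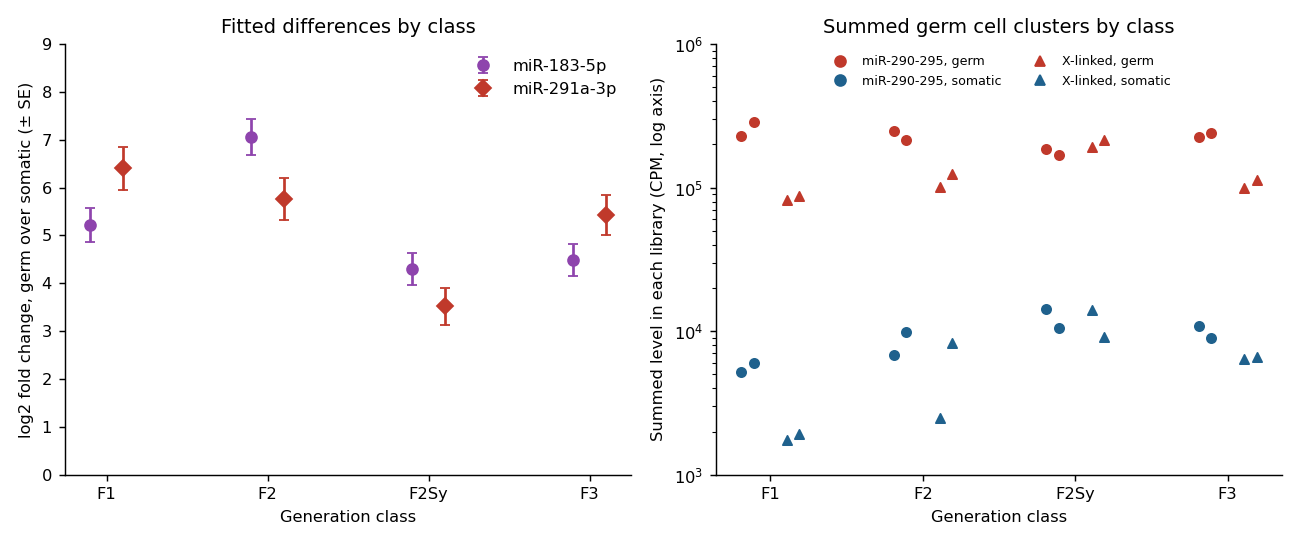
Left, log2 fold change of PGC over SC (± SE, 2 libraries per fraction) of miR-183-5p and miR-291a-3p in each generation class; right, summed level in each library (CPM, log axis) of the 12 miR-290-295 and 13 X-linked miRNAs. miR-183-5p has its largest fold change in F2 (7.05) and miR-291a-3p its smallest in F2Sy (3.52).

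The last comparison set the difference between fractions in the MEHP lineage against that of the control lineage, which shares no library with it. Of 263 miRNAs listed in all 32 libraries of both lineages, 0 differed between them (0%), with an adjusted p of at least 0.993 in edgeR and 4 miRNAs under 0.05 before adjustment, and DESeq2 called 0. In a fit over both lineages the log2 fold changes of 254 miRNAs had the same sign, with r = 0.996 across miRNAs, and the median absolute difference was 0.14, with a median SE of 0.25. The smallest p belonged to miR-183-5p, at 5.37 in MEHP and 4.85 in control (difference 0.52 ± 0.23, SE), and to miR-25-3p, at -0.65 and -0.95 (0.30 ± 0.14, SE). miR-291a-3p had 5.38 and 5.09 (0.28 ± 0.31) and miR-202-5p -4.41 and -4.24 (-0.18 ± 0.42, SE). Against the lineage of vinclozolin, an anti-androgenic fungicide given at 50 mg/kg daily, 0 of 261 miRNAs differed (0%), with an adjusted p of at least 0.951 in edgeR, 7 under 0.05 before adjustment and 0 called by DESeq2. The smallest p there belonged to miR-409-3p (-0.50 ± 0.18) and miR-291a-3p (0.71 ± 0.28, SE). Such misses do not show that the lineages are alike, and their SEs limit the differences that could be seen.

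**Figure D5:**
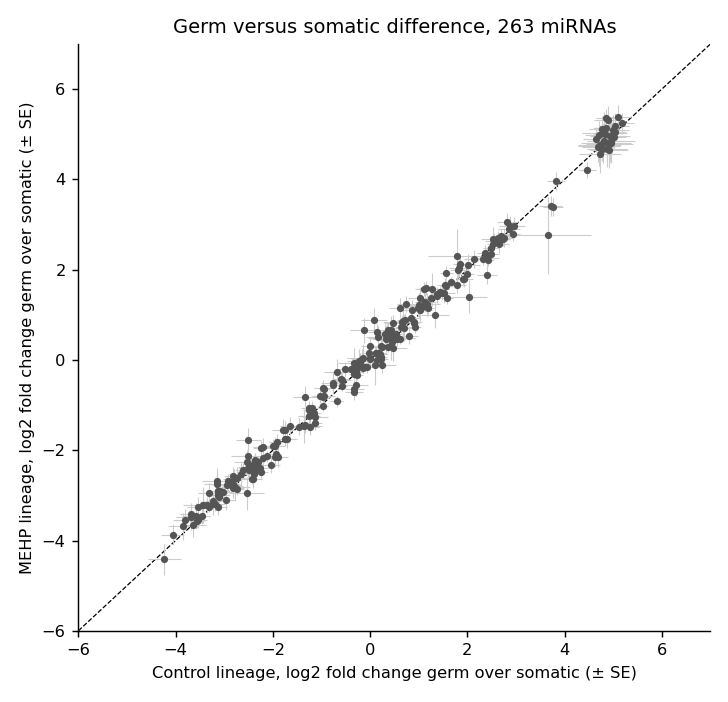
Log2 fold change of PGC over SC (± SE) of 263 miRNAs in the control lineage (x) and the MEHP lineage (y), from 1 fit over 32 libraries, with the line of equality dashed. The miRNAs lie along the line from the somatic miR-202-5p to the miR-290-295 and X-linked clusters.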

How the data were processed

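Small RNA libraries of 8 PGC and 8 SC samples of the MEHP lineage were compared, with the 16 control and 16 vinclozolin libraries for the differences between lineages. The authors deposited whole-number counts per mature miRNA, canonical and isomiR forms together, per the file headers. Bowtie 1.3.1 and mm39 are named in the submitters' processing notes; how miRNAs were annotated and counted was not stated in any source used. Blanks stayed missing, no cell is 0 and the smallest listed count in the series is 110, so totals are of listed counts and not of sequencing depth. Reads amplified by PCR and counted without molecular tags do not each stand for 1 molecule.

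Counts of miRNAs listed in every library of a fit entered edgeR 4.0.16 under R 4.3.3 (filterByExpr, TMM, robust quasi-likelihood fit, 8 groups of 2, two-sided), a fit with 8 residual degrees of freedom and a biological coefficient of variation of 0.309. The design had assumed a complete table. Contrasts were the mean over classes, each class, each class against the other 3, all differences between classes, and the lineages. Arm ratios (log2 of 5p over 3p counts) used limma 3.58.1. Calls are at an adjusted p under 0.05 over all features of a comparison. CPM use listed totals. Tests were tried on simulated data.

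Members, lists and tests were chosen with earlier results of these data known. Named miRNAs are, among calls of at least 10 CPM and 1 sign in all classes, the top 10 by fold change in each direction; also the 5 most abundant per fraction, up to 4 per list by level, up to 6 class or lineage calls (or 2 with the smallest p), up to 4 arm ratios and 5 seeds per direction, and up to 6 miRNAs per fraction listed there alone. Some more were chosen after seeing their values: the remaining called members of families and seeds, the marker miRNAs, and those with an antisense partner.

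RefSeq sequences (GRCm38.p6) were matched by name for 478 of 563 miRNAs. No coordinates are given, since the build differs from mm39. The alternatives included no filter, RLE factors, scaling by library size alone, blanks as 0 or at the smallest listed count, limma with blanks missing, DESeq2 1.42.0, all 48 libraries, a class fitted alone, the replicate block and each library left out.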

Additional observations from a re-analysis of the deposited data

Results flagged for a closer look

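Among 64 groups of 8 libraries tested (a named miRNA in 1 fraction), 13 held a library far from the others by Dixon's criterion (ratio over 0.526). The criterion assumes 8 values from 1 normal distribution. These are CPM of libraries from several classes, and the groups share libraries, so no expected number is set beside the 13. Library 1 of F3 PGC was the highest for 5 somatic miRNAs: miR-202-5p at 7809 CPM (others 1158 to 3520), miR-322-5p at 10068 CPM, miR-351-5p at 943 CPM, miR-409-3p at 316 CPM and miR-503-5p at 145 CPM. Its summed mesenchymal level, 28701 CPM, was also the highest of the PGC libraries (the lowest was 9595 CPM). Why this library stood apart was not tested. With each library of the lineage left out in turn, the F3 log2 fold change of miR-202-5p ranged from -4.66 to -2.70 (-3.37 with all). That of miR-503-5p ranged from -4.53 to -2.84 (-3.45 with all), and that of miR-351-5p from -4.61 to -2.88 (-3.53 with all). Library 1 of F3 SC was lowest for miR-202-5p at 29191 CPM and highest for miR-351-5p at 8690 CPM and miR-92a-3p at 50685 CPM, and library 2 of F3 SC was lowest for miR-199a-5p at 5060 CPM. In library 2 of F2Sy SC the erythroid miR-451a reached 85923 CPM, against 13995 to 19535 CPM in the other 7. The remaining single libraries were library 2 of F2 PGC for miR-126a-3p (11495 CPM), library 2 of F1 PGC for miR-291b-3p (22919 CPM) and library 2 of F2Sy PGC, low for miR-293-3p (39358 CPM).

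Between classes, the fraction difference of miR-183-5p was larger in F2 by 2.38 and that of miR-291a-3p smaller in F2Sy, at -2.35 on the log2 scale, both by the tests given above.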

How the results depend on the processing

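The calls of the mean comparison held best: leaving out each library gave 110 to 120 higher and 113 to 118 lower, and 83 of 96 named miRNAs kept direction and call in all alternatives run (up to 26). Weak calls were miR-106b-5p, miR-429-3p and miR-200a-3p. Treating blanks as 0 (541 miRNAs) gave 230 lower in PGC, class counts of 185, 188, 174 and 154 lower (F1 to F3), seeds 115 higher and 165 lower, 8 joint calls, and F1 3 higher, F2 3 higher and 2 lower, F2Sy 7 lower, F3 3 higher and 2 lower against the other classes. Blanks at the smallest listed count of their library gave 256 and 214 calls among 541 miRNAs. That smallest level was 22.5 to 26.4 CPM in PGC and 12.6 to 15.7 CPM in SC. A miRNA blank in both fractions is thus given a higher level in PGC, and calls made by this fill were not counted apart. DESeq2 gave 14 joint calls, 9 higher and 1 lower in F1, and 3 higher and 13 lower in F2Sy; library size alone gave 2 joint calls.

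Same-numbered libraries did not deviate together (r from -0.11 to 0.02 over the 4 classes). With the replicate block joint calls and those of F2Sy went to 0, and the mean comparison had 116 higher and 114 lower.

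Leaving out 1 library moved the joint count to 0 (F2 PGC 1 or 2, F2Sy PGC 2, F2 SC 2, F2Sy SC 2), 2 (F2 SC 1) or 6 (F3 SC 2), a range of 0 to 6. The F2Sy call was lost, at 0, without F2 PGC 1, either F2Sy PGC library, F1 SC 1 or F2Sy SC 1, and rose to 3 without F3 SC 2 (0 to 3). F1 lower counts ranged from 0 to 2 (F1 PGC 1), F2 higher from 1 to 2 (F2 SC 1), and F3 higher from 0 to 7 (F3 SC 2). Arm ratios ranged from 2 to 7 higher (7 without F3 SC 2) and 2 to 6 lower (2 without F2 SC 2 or F2Sy SC 1), and the vinclozolin difference from 0 to 3 (VZN F2Sy PGC 2). Without F3 SC 1 and F2Sy SC 2 together, chosen after seeing the data, 119 were higher and 115 lower.

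Signs reversed in 4 uncalled miRNAs. miR-15b-5p was -0.0299 with library size alone and -0.0386 with limma. Without 1 library it ranged from -0.0581 to 0.147, miR-24-3p from -0.0136 to 0.333, miR-150-5p from -0.0302 to 0.535 and miR-106b-3p from -0.336 to 0.000937. The cause was not tested. Depth limits miRNAs near the smallest listed level.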
